A study of Mus musculus with 21 samples.

Results

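Of the 148331 stretches of 1 kb (bins) of the mouse genome marked by H3K4me2 in at least 1 of 6 libraries, 15590 (10.5%) were marked in the libraries numbered replicate 2 of both genotypes and in no other. H3K4me2 is dimethylation of lysine 4 of histone H3. A bin counted as marked in a library when at least 500 bp of it lay in that library's deposited peaks, and the bins described here were chosen by those values alone, so their H3K4me2 values are given as a description with no test. The genes in them were read from the RefSeq annotation of GRCm38, as bins that touch a gene's span widened by 1 kb on each side. Among 49 genes known as markers of liver endothelial cells, 46 held at least 1 of these bins, against 6285 (28.7%) of all 21883 protein-coding genes. The count fell to 17 of 49, against 23.3% of all genes, when the same number of peaks was taken from every library. It was 40 of 49, against 12.2%, when the other 4 libraries had to hold 0 bp of peak in the bin.

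The chromatin came from primary hepatocytes isolated after perfusion of the liver at postnatal day 90, from mice of a mixed C57/B6 and 129 background. Wild-type (WT) mice carried Arid1a Fl/Fl alleles and no Cre, and knockout (KO) mice carried the same alleles with Alb-cre, in which the albumin promoter drives Cre recombinase in hepatocytes. ARID1A belongs to the SWI/SNF complex, which moves nucleosomes. The deletion is thus aimed at hepatocytes, though Alb-cre can also act in biliary cells, which share their precursors. Cell types that do not express the transgene keep the floxed alleles, a limit for bins at their genes. H3K4me2 was mapped in 3 WT and 3 KO libraries. C/EBPα, a transcription factor of hepatocytes, was mapped in 2 WT and 2 KO libraries, and 1 library mapped the V5 tag in V5-Arid1a mice. The labels give neither the sex of the mice nor whether a library is 1 animal or a pool, so the spread between libraries may be partly technical.

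H3K4me2 lies on promoters and enhancers that are active or poised, and each cell type carries it on its own set of genes. Liver sinusoids are lined by endothelial cells with scavenger receptors and an open, fenestrated wall, and these cells lie in direct contact with the hepatocytes. ETS family factors such as ERG, FLI1 and ETS1, together with GATA4 and SOX factors, are known to set the endothelial programme in the liver.

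The sequences printed here lie just upstream of endothelial genes whose start site was in a replicate-2-only bin, and they show what kind of promoter carried the mark there. They come from the RefSeq promoter table (build GRCm38.p6), run 5′ to 3′ on the gene's strand and stop before the annotated gene. Capitals mark a match to 1 of 7 motifs searched on both strands, which are spelled out with the promoter results. Stab2, a scavenger receptor of sinusoidal endothelium, is shown because it defines that cell type (chr10:87008039-87008192, minus strand). Egfl7, a factor secreted by endothelial cells, is shown because it held matches to an ETS motif (chr2:26580883-26581082, plus strand). Eng, a TGF-beta co-receptor of endothelium, is shown for its run of marked bins (chr2:32646395-32646594, plus strand). Ehd3, a membrane traffic protein of sinusoidal endothelium, is shown as a promoter rich in CpG (chr17:73804641-73804840, plus strand).
Stab2: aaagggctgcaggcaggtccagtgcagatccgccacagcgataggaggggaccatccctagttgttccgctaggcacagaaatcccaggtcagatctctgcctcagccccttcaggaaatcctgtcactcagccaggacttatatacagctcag
Egfl7: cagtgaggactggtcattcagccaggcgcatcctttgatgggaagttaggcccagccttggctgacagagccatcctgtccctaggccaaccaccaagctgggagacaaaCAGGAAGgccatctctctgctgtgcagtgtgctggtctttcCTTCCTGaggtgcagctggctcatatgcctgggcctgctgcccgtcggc
Eng: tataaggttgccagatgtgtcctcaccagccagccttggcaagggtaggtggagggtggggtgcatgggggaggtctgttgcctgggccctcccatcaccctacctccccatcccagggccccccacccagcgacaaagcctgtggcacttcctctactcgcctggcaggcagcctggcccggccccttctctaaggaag
Ehd3: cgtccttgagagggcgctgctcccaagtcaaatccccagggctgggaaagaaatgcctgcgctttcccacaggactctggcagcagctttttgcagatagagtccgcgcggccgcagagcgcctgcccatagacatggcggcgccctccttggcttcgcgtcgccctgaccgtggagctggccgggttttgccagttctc

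The 6 H3K4me2 libraries differed in how much of the genome they marked and in signs of sex. Between 24908 and 175794 peaks were deposited per library, and peaks covered 91.9 Mb in WT replicate 2 and 85.6 Mb in KO replicate 2, against 48.4, 51.7 and 28.0 Mb in WT replicates 1 and 3 and KO replicate 1. KO replicate 3 stood apart, with 102 Mb in peaks of a median width of 429 bp and 40211 bins marked in no other library. Xist, the RNA of the silenced X chromosome in females, held 11934 bp of peak in WT replicate 2 and 10825 bp in KO replicate 2 and 0 bp in the other 4. The Y-linked genes Kdm5d, Eif2s3y, Ddx3y and Uty held 0 bp in both replicates 2 and peaks in each of the other 4 libraries. Hepatocyte markers were present everywhere: of the start sites of 35 hepatocyte genes, between 23 and 35 were marked per library. Replicate number, the signs of sex and the mark on endothelial genes given below moved together and cannot be told apart. Covered length followed them only in part, since KO replicate 3 had the longest but Y-linked peaks, no peak on Xist and few marked bins in endothelial genes. In the C/EBPα libraries Ddx3y had a peak in all 4, so a number does not stand for the same kind of mouse across targets.

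Both replicates 2 shared far more bins with each other alone than any other pair of libraries did. Of 23487 bins marked in exactly 2 of the 6 libraries, 66.4% were marked in both replicates 2, and the next of the 15 pairs, WT replicate 2 and KO replicate 3, held 1628 bins. The first pair was 9.58 times as large as the next. Both replicates 1 alone shared 25 bins and both replicates 3 alone 442, while 17521 bins were marked in all 6 libraries.

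**Figure D1:**
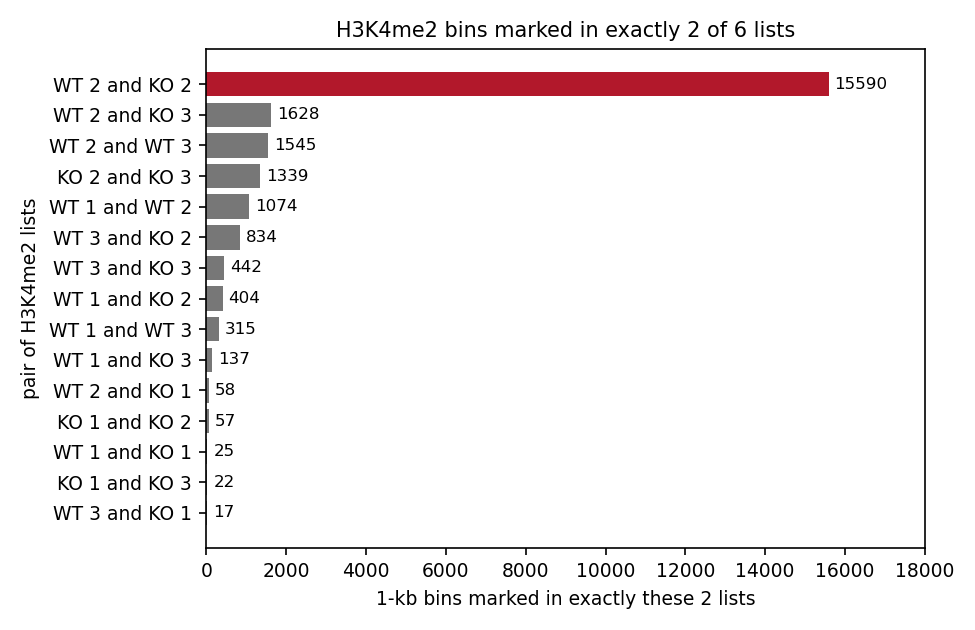
Number of 1-kb bins (x axis) marked in exactly 2 of the 6 H3K4me2 libraries, for each of the 15 pairs (y axis), with the pair of replicates 2 in red. That pair holds 15590 bins and the next one 1628.

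The bins were often the edges of regions that other libraries marked too. Only 5391 (34.6%) held 0 bp of peak in all 4 other libraries, 7296 (46.8%) touched a bin marked in another library, and 2891 (18.5%) lay more than 10 kb from one. In 2720 bins (17.4%), called free-standing here, no replicate 2 peak over the bin shared a base with any peak of the other 4 libraries. This class was defined after the data were seen. Near the limits of the rule, 3987 bins had at least 500 but under 600 bp in the lower replicate 2 library, and 4489 just missed the rule with at least 400 but under 500 bp. Another 3153 had at least 400 but under 500 bp in the highest of the other libraries, and 3979 missed the rule with under 600 bp there.

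The peaks over these bins were not the weakest of their libraries. Within each library peaks were ranked by the deposited −log10 q, and the median percentile over the bins was 62.7 in WT replicate 2 and 61.7 in KO replicate 2. The free-standing bins had lower medians of 39.4 and 42.6. The median deposited fold over the local background was 4.62 and 4.79. Most bins lay inside genes: 61.6% in a gene away from its ends, 18.9% within 1 kb of a gene end and 19.5% outside genes. For bins marked in at least 1 library these shares were 49.8%, 21.3% and 28.9%, so the share at gene ends was near that of all marked bins. Bins marked in all 6 libraries had 31.7%, 59.9% and 8.40%. Their share among marked bins ran from 8.60% on chromosome 3 to 11.6% on chromosome 2 over the autosomes. It was 10.03% on chromosome X.

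Stab2, Tek and Cdh5, taken as markers of endothelial cells, had most of their marked bins in both replicates 2. Stab2 (chromosome 10, 86841194 to 87008038) encodes stabilin-2, which clears hyaluronan and other ligands from blood. It had 4, 16 and 3 marked bins in WT replicates 1, 2 and 3 and 0, 15 and 4 in KO replicates 1, 2 and 3. The 12 and 10 peaks of both replicates 2 covered 15569 and 16492 bp of it, and the other libraries 4240, 2914, 0 and 5320 bp. Stab2 thus had some mark in 3 of the other 4 libraries, yet its start site was in peaks in both replicates 2 alone. Of its 8 replicate-2-only bins, 6 formed a block over the start site and all 6 were free-standing.

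Tek (chromosome 4, 94739086 to 94874976) encodes TIE2, the endothelial receptor of the angiopoietins. It had 0, 5 and 0 marked bins in the WT libraries and 0, 5 and 1 in the KO libraries, in the order of replicates 1 to 3. Its 4 replicate-2-only bins covered the start of the gene, and peaks held 0, 6403 and 324 bp of the widened gene in WT and 0, 5861 and 2298 bp in KO. Outside both replicates 2, a single bin, in KO replicate 3, was marked.

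Cdh5 (chromosome 8, 104101613 to 104144504) encodes VE-cadherin, the adhesion protein of endothelial junctions. It had 0, 9 and 0 marked bins in the WT libraries and 0, 10 and 2 in the KO libraries. WT replicates 1 and 3 and KO replicate 1 held no peak on it at all, KO replicate 3 held 2860 bp, and both replicates 2 held 8423 and 10323 bp. Its 5 bins lay in 2 blocks inside the gene, and none was free-standing since small KO replicate 3 peaks touched the same peaks.

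**Figure D2:**
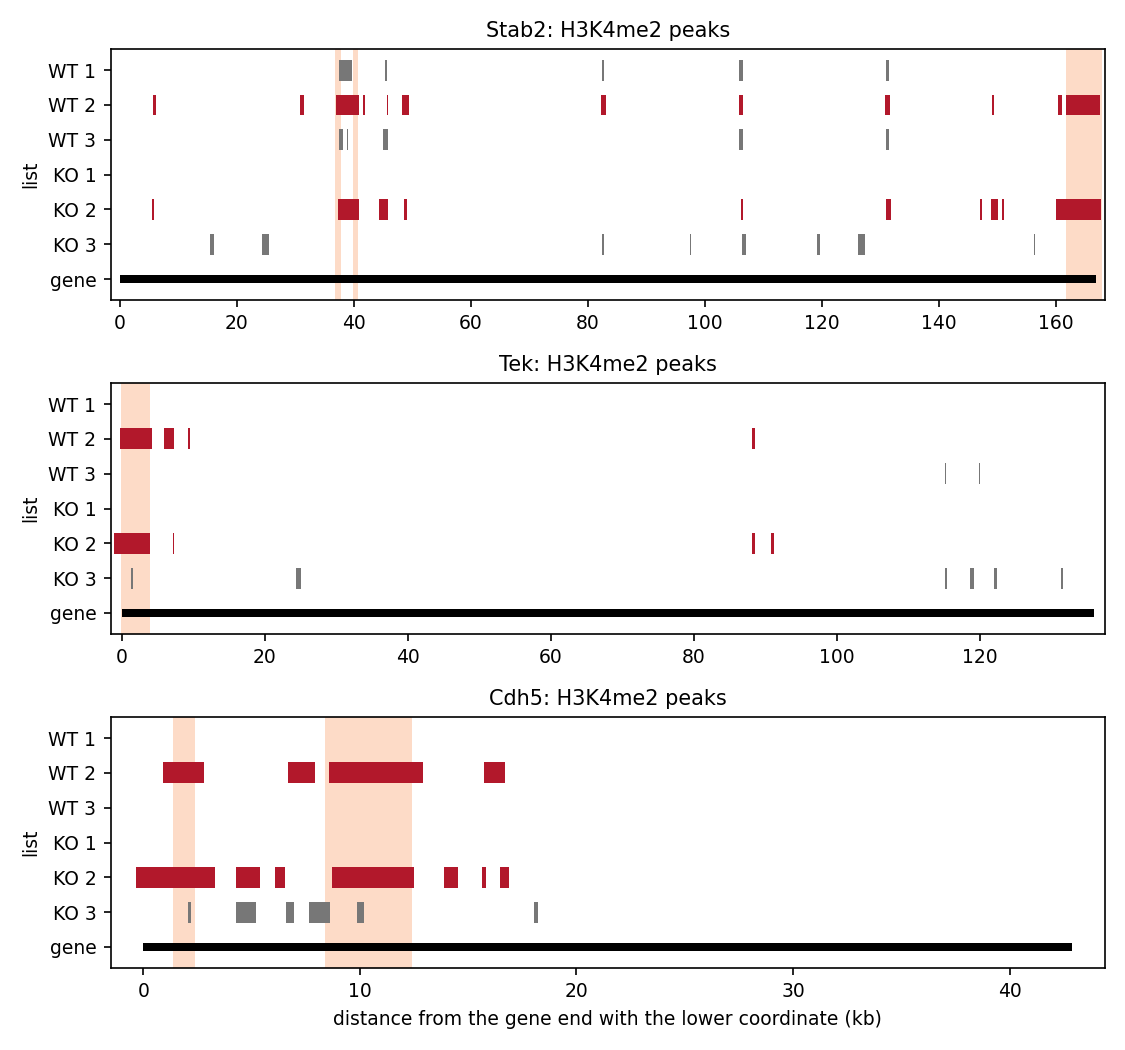
H3K4me2 peaks (bars) of the 6 libraries over Stab2, Tek and Cdh5, by distance in kb from the gene end with the lower coordinate, with both replicates 2 in red and replicate-2-only bins shaded. Stab2 runs from right to left, and its shaded block at the right covers its start site, where the other 4 libraries have no peak; Tek runs from left to right.

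The rest of the endothelial list followed the same pattern in most of its genes. In 42 of 49 genes each replicate 2 library had more marked bins than any other library had, against 23.9% of all genes. All genes include those with no mark. Of the lists described below, the count was 11 of 20 for housekeeping, 19 of 43 for hepatocyte and 16 of 23 for female-biased genes. It was 15 of 33 for stellate cell and fibroblast genes, 2 of 25 for neuronal and 0 of 19 for male-biased genes. In 22 of 49, both replicates 2 had marked bins while WT replicates 1 and 3 and KO replicate 1 had 0, against 5.70% of all genes. In 8 the count in KO replicate 3 was 0 too, against 2.71%. Neither count was particular to endothelium, with 14 and 8 of 33 stellate cell and fibroblast genes. Macrophage genes had 10 and 4 of 32, erythroid and megakaryocyte genes 3 and 3 of 13, and female-biased genes, described below, 7 and 5 of 23. Lymphocyte genes had 5 and 1 of 26, biliary genes 1 and 0 of 18 and hepatocyte genes 0 and 0 of 43. A bin marked in both replicates 1 only or both replicates 3 only was held by 0 of 49, against 0.0777% and 1.48% of all genes. These 0 counts are near the shares of all genes, since only 25 and 442 such bins exist, and show no contrast for endothelium. Summed over the 49 genes, marked bins came to 32, 346 and 38 in the WT libraries and 19, 370 and 85 in the KO libraries. The 2 ranges, 346 to 370 and 19 to 85, did not overlap, which the choice of bins in part fixes. The ranges of all marked bins of the genome did not overlap either, with 86749 and 81138 in WT and KO replicates 2 and 25840 to 77525 in the other libraries. The counts held at each gene length: with genes split into 3 equal groups by length, 8 of 8, 19 of 20 and 19 of 21 endothelial genes from short to long held such a bin, against 12.4%, 26.7% and 47.1% of all genes.

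Marked start sites were counted in each library from the same peaks that chose the bins, so they are no separate check. The endothelial list was also chosen with earlier results of these data known. Of the 25 list genes with a start site in the promoter table, the start site was marked in 2, 19 and 2 in the WT libraries and 0, 20 and 1 in the KO libraries. Over all 17491 genes in that table, the start site was marked in 50.0%, 58.3% and 46.1% in WT and 37.8%, 58.7% and 41.4% in KO. The start site lay in a replicate-2-only bin for 14 of the 25, against 4.68% of all. With 24908 peaks taken from every library, 14, 25 and 10 of the 49 genes were marked in the WT libraries and 12, 37 and 7 in the KO libraries, so replicates 2 still had the highest counts. The shares of all genes were then 57.4%, 61.6% and 54.0% in WT and 51.2%, 62.8% and 38.7% in KO.

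**Figure D3:**
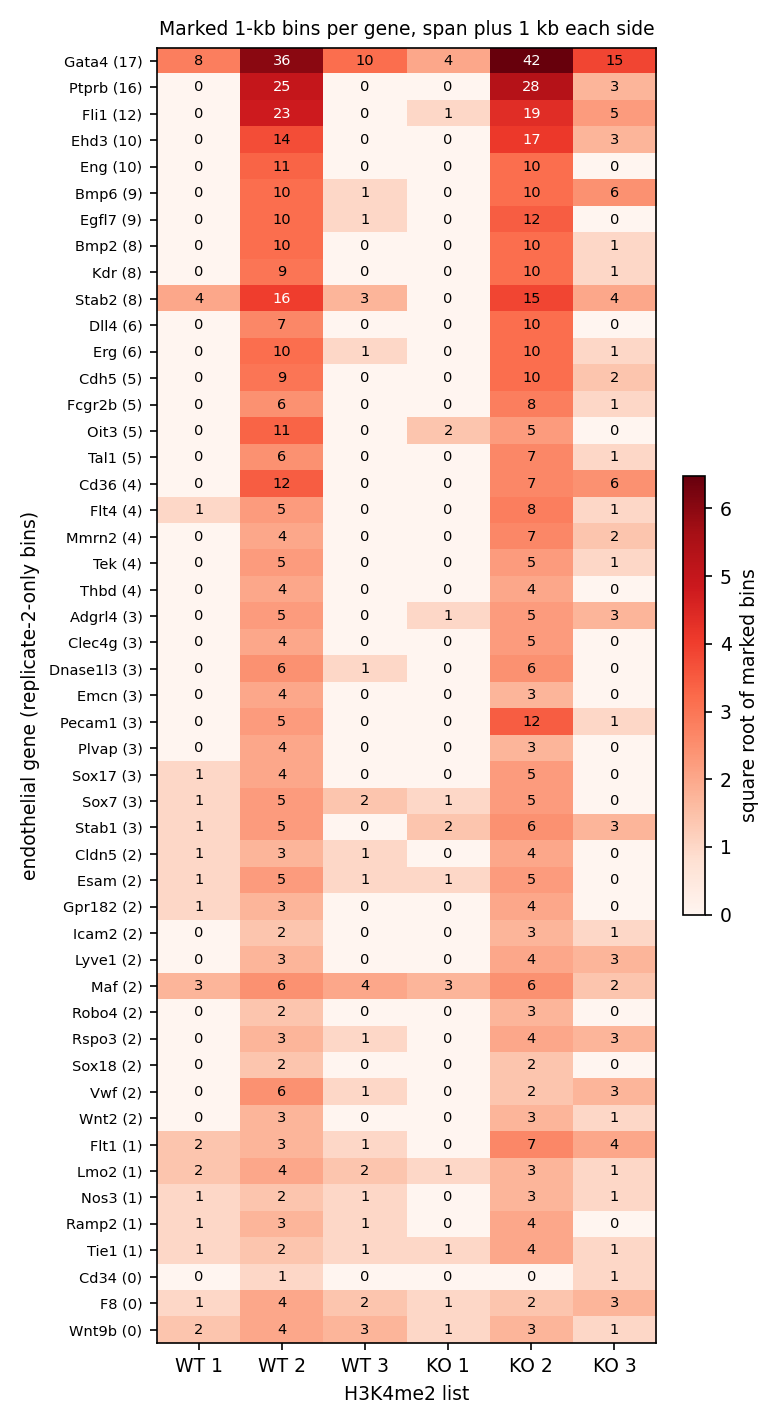
Marked 1-kb bins (number and colour) of the 49 endothelial genes (y axis, replicate-2-only bins in brackets) in the 6 H3K4me2 libraries (x axis). The columns of both replicates 2 sum to 346 and 370, and the other 4 to between 19 and 85.

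Endothelial receptors carried many of the bins. Ptprb, which encodes the phosphatase VE-PTP that acts on TIE2 and VE-cadherin, had 16 replicate-2-only bins, with 0, 25 and 0 marked bins in the WT libraries and 0, 28 and 3 in the KO libraries. Kdr, the main VEGF receptor of endothelium, had 8, with 0, 9 and 0 in WT and 0, 10 and 1 in KO. Eng had 10, with 0, 11 and 0 in WT and 0, 10 and 0 in KO. At these 3 genes the replicates 2 libraries were the only ones with more than 3 marked bins. Flt4, a VEGF-C receptor of lymphatic and sinusoidal endothelium, had 4 such bins and Flt1 and Tie1 had 1 each. Tie1 was marked in every library, with 1 bin in each other library and 2 and 4 in WT and KO replicates 2.

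Some other genes of sinusoidal endothelium, picked from the list after their values were seen, held fewer bins. Stab1, the relative of Stab2, had 3 replicate-2-only bins, Fcgr2b, an inhibitory Fc receptor, had 5, Clec4g, a sinusoidal lectin, had 3, Lyve1, a hyaluronan receptor, had 2 and Oit3 had 5. Clec4g had 4 and 5 marked bins in WT and KO replicates 2 and 0 in each other library. Stab1 had 1, 5 and 0 in WT and 2, 6 and 3 in KO, and Oit3 had 0, 11 and 0 in WT and 2, 5 and 0 in KO. Lyve1 had 0, 3 and 0 in WT and 0, 4 and 3 in KO, so KO replicate 3 matched WT replicate 2 there. Ligands that endothelium is known to supply to hepatocytes also held such bins: Bmp6 and Bmp2, which control hepcidin, had 9 and 8, and the zonation factors Wnt2 and Rspo3 had 2 each. Bmp2 had 0, 10 and 0 marked bins in WT and 0, 10 and 1 in KO. Bmp6 had 0, 10 and 1 in WT and 0, 10 and 6 in KO, and Rspo3 had 0, 3 and 1 in WT and 0, 4 and 3 in KO, so KO replicate 3 marked these ligand genes too. Dll4, a Notch ligand, had 6 bins, with 7 and 10 marked bins in replicates 2 and 0 in each other library.

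Transcription factors of endothelium held bins in 31 of 36 cases, against 28.7% of all genes, with 9 of the 36 shared with the list above. Ets1 had 24 replicate-2-only bins, Gata4 17, Fli1 12, Elf1 11, Mef2c 10 and Erg 6. Fli1 had 0, 23 and 0 marked bins in WT and 1, 19 and 5 in KO, and Mef2c had 0, 11 and 0 in WT and 0, 14 and 2 in KO. Ets1, Gata4 and Elf1 were marked in all 6 libraries, Gata4 with 8, 36 and 10 bins in WT and 4, 42 and 15 in KO. At these genes the mark was wider in replicates 2 rather than found in them alone. Of the 36 factors, 18 held a bin marked in all 6 libraries, as did 5 of the 49 endothelial genes and 9755 of all 21883. In the longest of the 3 length groups 15 of 16 factors held a replicate-2-only bin, against 47.1% of all genes there. Foxc1, Foxc2, Foxf1, Hhex and Meox2 held none of the bins. Among 27 ligands and receptors of VEGF, TIE and Notch signalling 20 held one, with 6 of the 27 shared with the endothelial list. Of these 27 genes 14 were in the longest of the 3 length groups, where 47.1% of all genes held a bin, and 11 of the 14 did. The Notch receptor genes Notch1 and Notch2 had 9 and 7 bins and were marked in all 6 libraries. Notch1 had 4, 20 and 5 marked bins in WT and 4, 19 and 9 in KO, and Notch2 had 10, 23 and 16 in WT and 7, 26 and 21 in KO.

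The 3 endothelial genes without such a bin were Cd34, F8 and Wnt9b. Cd34, a sialomucin of vessels and blood progenitors, had 1 marked bin in WT replicate 2 and 1 in KO replicate 3. F8, the coagulation factor VIII gene, was marked in every library with 1 to 4 bins. Wnt9b, a Wnt ligand of central vein endothelium, was marked in every library too, also with 1 to 4 bins. Stab1, Fcgr2b, Oit3, Clec4g, Lyve1, Wnt2, Rspo3, Flt1 and Tie1 above, and Alb and the stellate cell and macrophage genes with 0 bins below, lie outside the rule for naming genes and were chosen for their known roles after their values were seen.

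Marker genes of other non-hepatocyte cells of the liver held such bins less often than endothelial genes did. A replicate-2-only bin was found in 14 of 33 stellate cell and fibroblast genes, 13 of 32 Kupffer cell and macrophage genes, 10 of 26 lymphocyte genes, 5 of 13 erythroid and megakaryocyte genes, 5 of 18 biliary genes and 2 of 10 mesothelial genes, beside the 28.7% of all genes. The difference between these lists and the endothelial list was not tested. It was not seen on every count: genes marked in both replicates 2 with 0 marked bins in the other 4 libraries were 8 of 33 stellate cell and fibroblast genes. For endothelial genes that count was 8 of 49. Their free-standing counts were 8 of 33, 7 of 32, 3 of 26, 1 of 13, 0 of 18 and 1 of 10, against 18 of 49 for endothelium and 6.42% of all genes. Biliary and mesothelial genes were thus near or under the level of all genes on the first count.

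Among stellate cell genes, Sparc, a matrix protein also made by endothelium, had 5 bins and Hgf, the hepatocyte growth factor, had 4. Hgf had 0, 5 and 0 marked bins in WT and 0, 7 and 1 in KO. The fibroblast genes Col1a1, Col1a2 and Pdgfrb had 1 bin each, while the stellate cell and fibroblast genes Lrat, Des, Acta2, Col3a1, Dcn, Lum and Pdgfra had 0. Among macrophage genes, the mannose receptor gene Mrc1, which sinusoidal endothelium also expresses, had 8 and the scavenger receptor gene Msr1 6. The Kupffer cell genes Csf1r and Adgre1 had 2 and 1, and the complement genes C1qa and C1qb 1 each. The Kupffer cell and macrophage genes Clec4f, Timd4, Vsig4, Cd5l, Marco, Cd163 and C1qc had 0. Mrc1 had 0, 13 and 1 marked bins in WT and 0, 12 and 3 in KO, and C1qa had 0, 3 and 0 in WT and 0, 2 and 0 in KO. Summed over the list, marked bins of stellate cell genes were 73 and 81 in WT and KO replicates 2 and 8 to 42 in the other libraries, beside the 86749 and 81138 against 25840 to 77525 of the whole genome. Among lymphocyte genes Ikzf1 had 4 bins and Ptprc, the leukocyte antigen CD45, had 3.

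A bin was found in 23 of 43 hepatocyte genes (53.5%), against 28.7% of all genes. None of the 43 had a free-standing one, against 6.42% of all genes. None of the 35 start sites in the promoter table lay in a replicate-2-only bin, against 4.68% of all. Of the 43 genes, 41 held a bin marked in all 6 libraries, and 34 of the 35 start sites were marked in WT replicate 1. The rule for the bins thus in part fixes both counts of 0. Ass1, a urea cycle enzyme, and C3, the central complement protein, had 8 each, and Nr1h4, the bile acid receptor FXR, had 6. Ass1 had 16, 27 and 16 marked bins in WT and 12, 41 and 15 in KO, so the mark was present in all libraries and extended farther in replicates 2. Alb had 1, with 9, 11 and 5 marked bins in WT and 5, 9 and 6 in KO. Housekeeping genes were alike, with 11 of 20 (55%) holding a bin and 0 of 20 a free-standing one, against 28.7% and 6.42% of all genes. Neuronal genes (7 of 25) and skeletal and cardiac muscle genes (2 of 25) had no more than all genes.

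**Figure D4:**
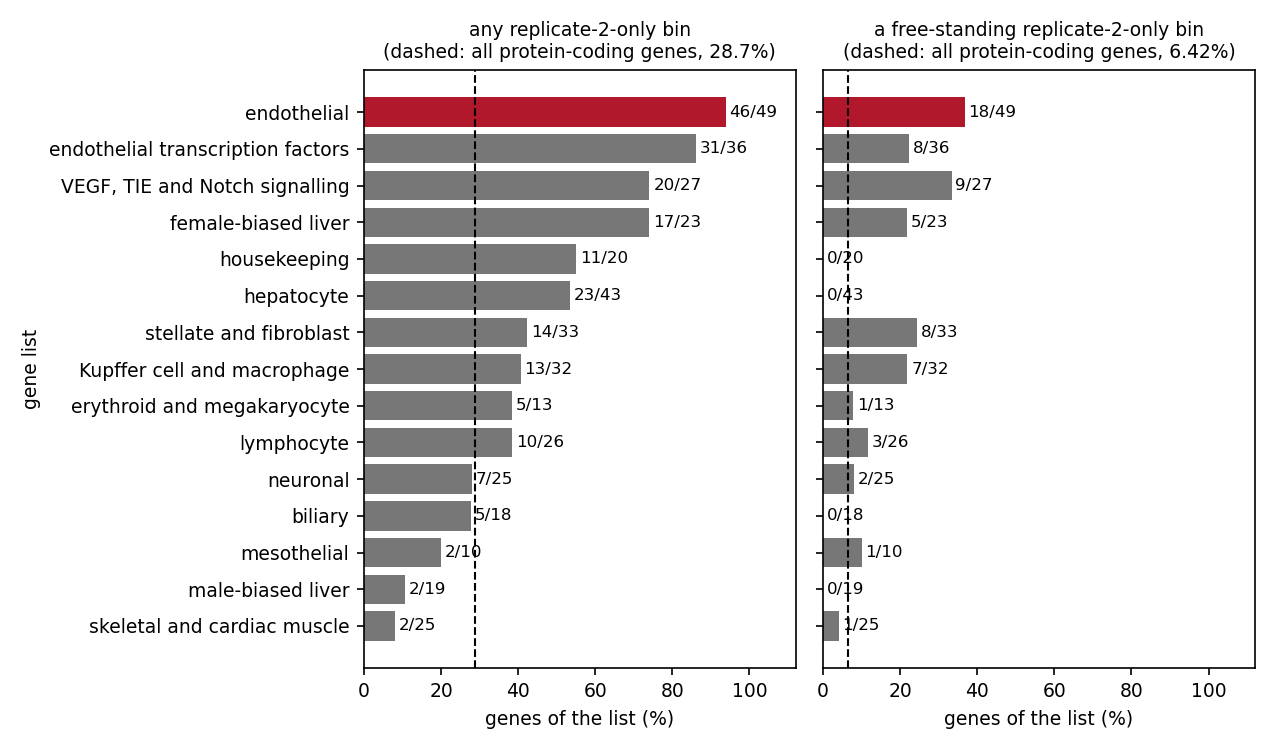
Share of genes (x axis, percent) of each list (y axis) holding a replicate-2-only bin (left) or a free-standing one (right), with counts beside the bars and the share of all protein-coding genes as a dashed line at 28.7% and 6.42%. The endothelial list, in red, has 46 of 49 and 18 of 49; hepatocyte and housekeeping genes have 0 on the right.

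The 15 genes with the most bins were long genes of several kinds. Mtss1, a regulator of the actin skeleton, led with 36 of them in 143 kb. Ets1 had 24, Rxra, the partner of many nuclear receptors, 22, and Por, the reductase that serves the cytochromes P450, 19. Dlc1, Rere, Tcf4 and Zmiz1 had 18 each, Gata4 17, Arhgap26, Cux2, Nfia, Ppp2r5e and Ptprb 16 each and Nr3c1, the glucocorticoid receptor gene, 15. Rgl1, Rhobtb1 and 4 overlapping genes of the Ugt1a cluster held 15 too, and Nr3c1 took the last place by the order of names. At Mtss1 marked bins numbered 36, 98 and 35 in WT and 11, 88 and 22 in KO, so this gene was broadly marked in every library. Cux2 and Ptprb had no bin marked in all 6 libraries, unlike the other 13. Among genes with the most free-standing bins, an order chosen after values were seen, were Tcf4 and Tmcc3 with 8 each, and Cux2, Ets1 and Ggta1 with 7 each.

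Adjoining bins formed 12820 runs, of which 10860 were single bins and 63 had 5 or more. The longest, of 12 bins, lay on Cyp2a4 (chromosome 7, 26303001 to 26315000), a steroid hydroxylase known to be higher in female liver. Cyp2a4 has near-identical relatives, so the placing of short reads there is uncertain. The next, of 11 bins, covered the Xist locus (chromosome X, 103474001 to 103485000), with Tsx as the nearest protein-coding gene. The third, of 10 bins, lay on Eng (chromosome 2, 32646001 to 32656000). Mtss1 and Cyp2c39 held runs of 9, Ets1 one of 8, and Gata4, Slc9a3r2 and Cemip2 runs of 7. The longest runs therefore mixed endothelial genes with genes known for a higher level in females.

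A list of 23 genes known to be higher in female than in male mouse liver was added after these runs were seen. Of the 23, 17 held a replicate-2-only bin and 5 a free-standing one, against 28.7% and 6.42% of all genes. In the longest of the 3 length groups, where 47.1% of all genes held a bin, 11 of 13 did. Of 19 genes known to be higher in males, 2 held a replicate-2-only bin and 0 a free-standing one. The female-biased genes summed to 37, 254 and 49 marked bins in WT and 16, 172 and 61 in KO. All marked bins of the genome were also most numerous in replicates 2, with 45591, 86749 and 46616 in WT and 25840, 81138 and 77525 in KO. The male-biased genes summed to 92, 69 and 77 in WT and 42, 60 and 69 in KO, with no higher level in replicates 2. Cux2, a repressor active in female liver, had 0, 24 and 3 marked bins in WT and 0, 22 and 3 in KO. Hao2 and Sult2a1 had 7 and 5 marked bins in WT replicate 2 and 8 and 6 in KO replicate 2.

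The 10 bins under the strongest peaks lay in or within 442 bp of genes not named so far. By the mean percentile of −log10 q in both replicates 2 they were nearest to Dnajc12, Nln, Amdhd2, Cd3eap, Tasp1, Ccsap, Ccdc15, 0610010K14Rik, Espl1 and Dnajc4, with means from 99.6 to 99.9. None was free-standing. At 9 of the 10 other libraries also had peak in the bin but under 500 bp in each, such as 477, 387, 479 and 175 bp at Dnajc12. The bin near 0610010K14Rik had 0 bp in the other 4.

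Promoters in these bins differed in sequence from those marked in all libraries. The windows searched reach from 250 bases before to 50 after a start site, 902 with the start site in a replicate-2-only bin and 5875 with it in a bin marked in all 6 libraries, of 21262 in all. The median number of CpG was 15, 23 and 13 in these 3 groups. The ETS motif CAGGAAG, searched on both strands, was in 18.7%, 11.5% and 12.5% of windows, and the ETS motif CCGGAAG, common in CpG-rich promoters, in 6.65%, 21.3% and 11.6%. The GATA motif AGATAAG was in 3.88%, 1.62% and 2.64%. The SOX motif AACAATG was in 2.33%, 1.46% and 3.25%, the FOX motif TGTTTAC in 2.99%, 2.30% and 3.01%, the AP-1 motif TGANTCA in 6.87%, 4.15% and 6.99%, and the C/EBP motif TTGCAA in 6.54%, 4.34% and 5.67%. Both ETS motifs share the letters GGAAG, and matches of different motifs may overlap. The windows that held CAGGAAG were thus a larger share in the replicate-2-only group and those with CCGGAAG a smaller one than in either other group, a description of letters with no test.

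Of the 16 windows of endothelial genes with the start site in a bin of the set, 4 held CAGGAAG and none CCGGAAG. The Egfl7 stretch printed above has CAGGAAG at 90 and, on the other strand, at 49 bases before the start site. The Stab2, Eng and Ehd3 stretches hold none of the 7 motifs. CpG counts in their 300-base windows were 4 for Stab2, 5 for Egfl7, 6 for Eng and 24 for Ehd3, so both CpG-poor and CpG-rich promoters were among them.

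C/EBPα, which the choice of bins did not use, was found on fewer of them than on bins marked in all 6 libraries. A C/EBPα peak touched 9.77% (95% exact binomial interval 9.31 to 10.25) and 12.4% (11.9 to 12.9) of the replicate-2-only bins in WT replicates 1 and 2 and 9.95% (9.48 to 10.4) and 10.5% (10.01 to 10.98) in KO replicates 1 and 2. On bins marked in all 6 libraries it was 17.9% and 23.4% in WT and 24.1% and 25.1% in KO. The difference averaged -12.0 percentage points ± 3.003 (SD, n = 4) and was below 0 in 4 of 4 libraries (exact sign-flip permutation p = 0.13, two-sided, the smallest that 4 libraries allow). The bins marked in all 6 libraries are more often at gene ends, 59.9% against 18.9%. Of the 15590 replicate-2-only bins, 12870 were not free-standing. The Y-linked gene Ddx3y had a peak in all 4 C/EBPα libraries and 0 bp of H3K4me2 peak in both replicates 2. The part of each of these in the difference was not tested.

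The WT and KO libraries overlapped on these bins. The share with C/EBPα averaged 11.1% ± 1.86 in WT and 10.22% ± 0.381 in KO (SD, n = 2 each), a difference of -0.87 percentage points that was smaller than the spread between WT libraries (exact permutation p = 1, two-sided, with 0.33 the smallest possible). The direction turned without WT replicate 2, to 0.449 points. Under some other choices the 2 genotypes did not overlap, each at the smallest possible p (exact permutation p = 0.33). KO minus WT was then -1.16 points with bins marked from 250 bp, -0.742 with 0 bp in the other H3K4me2 libraries, -2.78 without H3K4me2 KO replicate 2, -2.19 without C/EBPα WT replicate 1 and -1.10 on free-standing bins. It was 0.465 points, with KO the higher, with equal numbers of the widest C/EBPα peaks. Against bins marked in both replicates 3 only, the share was lower in 2 of 4 libraries, by -1.17 points on average ± 3.23 (SD, n = 4; exact sign-flip permutation p = 0.5). Against the 25 bins marked in both replicates 1 only it was lower in 4 of 4 (-31.3 points ± 6.65, SD, n = 4; exact sign-flip permutation p = 0.13), a set too small for a firm value. The deposited C/EBPα lists hold 40.0% to 40.1% of the peaks their numbering implies, so a bin without a peak can still be bound.

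Endothelial genes had few C/EBPα peaks on their replicate-2-only bins, which does not hold for the genes as a whole. Counted per gene, 16 and 18 of the 49 had a C/EBPα peak in WT replicates 1 and 2 and 14 and 12 in KO replicates 1 and 2. The shares of all genes were 27.6% and 33.4% in WT and 28.5% and 29.8% in KO. Of the 213 replicate-2-only bins in the 49 endothelial genes, 4 and 6 touched a C/EBPα peak in WT and 4 and 3 in KO, between 1.41% and 2.82%. Of the 57 bins in hepatocyte genes, 10 and 12 did in WT and 12 and 13 in KO, between 17.5% and 22.8%. Nr1h4 held 3 and C3 2 of these in each library. The shares for endothelial bins were below those for all replicate-2-only bins in each of the 4 libraries. Free-standing bins lay between, with 6.10% and 7.06% in WT and 5.48% in both KO libraries. ARID1A peaks, from the single V5 library and so without a replicate, touched 3.97% (3.67 to 4.29) of all replicate-2-only bins, 1.51% (1.08 to 2.04) of the free-standing ones and 5.40% (5.07 to 5.75) of those marked in all 6 libraries. They touched 2 of the 213 endothelial and 6 of the 57 hepatocyte bins.

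**Figure D5:**
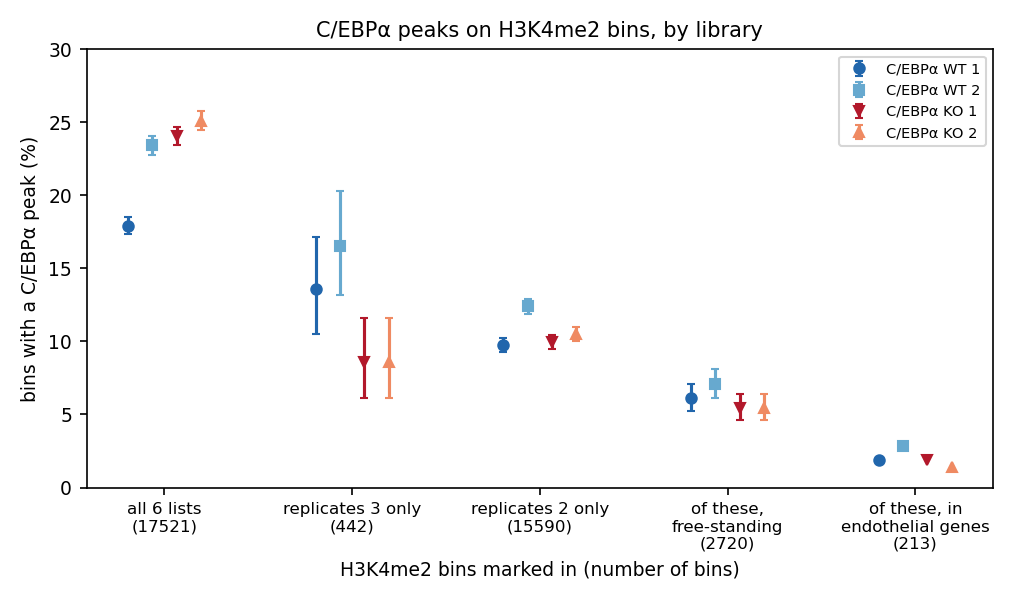
Share of bins (y axis, percent) with a C/EBPα peak in each of the 4 C/EBPα libraries (symbols), for sets of H3K4me2 bins (x axis, number of bins in brackets), with 95% exact binomial intervals except for the endothelial set. Bins marked in all 6 libraries lie at 17.9% to 25.1%, replicate-2-only bins at 9.77% to 12.4% and those in endothelial genes at 1.41% to 2.82%.

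In bulk chromatin a mark carried by more cells of a type and a stronger mark in the same cells cannot be told apart. Read numbers per library were not analysed here, so depth is unknown, and a bin without a peak means only that no peak was called there.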

How the data were processed

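ChIP-seq of perfused mouse hepatocytes gave 11 deposited peak lists of 21 samples, and 10 input samples were not used. The submitters' processing notes name the build mm10, HOMER, MACS2 2.0.10.20131216, Bowtie2 2.2.3 and Picard. Each H3K4me2 list gives, per the authors' deposited broad peak file, peak coordinates, a fold (a ratio over local background), a score, and −log10 p and −log10 q values. These deposited values vary with each library's unknown depth. The fold and −log10 values were used, and only within a library, apart from a threshold at the pooled median −log10 q. For C/EBPα and V5 the deposited lists hold coordinates and names alone.

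Peaks were merged within a library and counted in 1000-bp bins, marked from 500 bp. A gene end is the 1 kb to either side of an annotated end. Genes came from RefSeq GRCm38 (21883 protein-coding genes). Only C/EBPα shares were tested, with exact permutation tests over libraries (scipy 1.17.1, Python 3.11.15). The bin and test code was tested on simulated data. Intervals are exact binomial, 95%, and cover counting of bins only. The bins and the gene lists were chosen with earlier results of these data known, and the sex-biased lists and the free-standing class after these values were seen. Genes named are Stab2, Tek and Cdh5, list genes with a bin (up to 12 a list), the 15 genes with most bins, those at the 10 longest runs and at the 10 strongest bins, and endothelial genes with none; 1 gene under this rule is not reported here. Alternatives changed the bin size, threshold and position, the peaks used, the gene window and the libraries.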

Additional observations from a re-analysis of the deposited data

How the results depend on the processing

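The number of bins marked in both replicates 2 alone depended on how a bin was counted. It was 5391 when the other 4 libraries had to hold 0 bp, 7571 with 2-kb bins, 31587 with 500-bp bins and 10312 with the same number of peaks from every library. It ranged from 16001 to 30372 when 1 H3K4me2 library was left out, with 27385 without WT replicate 2 and 30372 without KO replicate 2. Genes with such a bin numbered 2668 under the rule of 0 bp, 2718 with bins at gene ends only and 6411 to 8819 with 1 library left out. Endothelial genes fell to 17 with the same number of peaks, against 23.3% of all genes. They were 39 with bins at gene ends only, against 12.4%. With 1 library left out they stayed at 46 to 49, against 29.3% to 40.3% of all genes. With free-standing bins only, an alternative chosen after seeing the data, there were 2720 bins, 1404 genes and 18 endothelial genes. The difference in C/EBPα between KO and WT turned to 0.150 points with the same number of H3K4me2 peaks, 0.465 with the widest C/EBPα peaks of each library, as many as the shortest list holds, and 0.449 without C/EBPα WT replicate 2. It ranged from -2.78 to 0.449 over the libraries left out. A replicate block gave -0.869 points (exact sign-flip permutation p = 1, with 0.5 the smallest possible). The numbers were not taken as pairs in the main C/EBPα test. Deviations of same-numbered C/EBPα libraries correlated at 0.0255 and of different-numbered ones at -0.0255. For H3K4me2 the same-numbered values were -0.0323, 0.313 and 0.178 for replicates 1, 2 and 3. Different-numbered H3K4me2 libraries ran from -0.290 to 0.174, so replicates 2 and 3 were above all of these and replicates 1 were not. The deficit of C/EBPα against bins marked in all 6 libraries kept its direction in all 20 alternatives, from -17.8 to -8.48 points. The causes of these shifts were not tested. The depth of the libraries is unknown, which limits every statement on a bin without a peak.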

Other observations

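Some genes known for a higher level in female liver were marked in WT replicate 2 and not in KO replicate 2, and so are not among the bins described above. Cyp2b9, a cytochrome P450 of female liver, had 15 marked bins in WT replicate 2 and 0 in each of the other 5 libraries. Its neighbour Cyp2b13 had 12 in WT replicate 2, 0 in KO replicate 2 and 1 in KO replicate 3, and the sulfotransferase gene Sult3a1 had 7 in WT replicate 2 and 0 in the other 5. These genes were chosen after their values were seen and have close relatives, so the placing of reads is uncertain. With 1 such library of each genotype, there is no replicate check of a difference between WT and KO.

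WT replicate 2 alone marked 14782 bins and KO replicate 2 alone 11795. C/EBPα peaks touched 11.2% and 14.1% of the former in the WT libraries and 7.35% and 8.31% in the KO libraries. On the bins marked in KO replicate 2 alone the shares were 5.72% and 7.11% in WT and 6.16% and 6.35% in KO. V5-tagged ARID1A touched 2.86% of the first set and 1.59% of the second.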
